A study of Gallus gallus with 4 samples.

Results

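The ectodysplasin pathway was followed through its ligand gene EDA (ENSGALG00000035966), its receptor gene EDAR (ENSGALG00000016809) and its adaptor gene EDARADD (ENSGALG00000031763), which are 3 of the 16878 genes counted in embryonic chicken feathers. Each symbol matched 1 gene in the gene lists. The genes were taken by name, and their levels were read in epithelial barcodes (at least 3 UMIs of GATA3 and KRT5 together and at most 5 of COL1A1 and COL1A2), in fibroblast barcodes (at least 5 UMIs of COL1A1 and COL1A2 and at most 2 of GATA3 and KRT5), and in epithelial barcodes with at least 3 UMIs of SHH against those with none. A UMI is a tag that marks 1 captured RNA molecule, and a barcode is a droplet that held a cell or a nucleus.

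Ectodysplasin is a ligand of the tumour necrosis factor family. It binds EDAR on epithelial cells of developing skin appendages, and EDARADD joins the activated receptor through its death domain to the TRAF and IkappaB kinase machinery that releases NF-kappaB. In mammals the loss of any of these genes disturbs hair, teeth and sweat glands, and in birds the pathway takes part in the patterning of feather primordia. SHH, a secreted signal of feather epithelium, is expressed in the placode and later along the barb ridges.

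The study profiled dorsal feathers of White Leghorn embryos in 4 droplet libraries, 1 per group. Plucked feathers came from embryos incubated for 12, 13 and 14 days, which are stages 38, 39 and 40 of the Hamburger and Hamilton series, and feathers still in the skin, with the epidermis, came from 12 days. Both day 12 libraries held whole cells freed with Pronase, and the day 13 and day 14 libraries held nuclei, so that age and preparation cannot be told apart between day 12 and the later days. With 1 library per group no test between groups was possible, and every interval given here is a 95% interval for counting error alone.

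After barcodes with under 500 UMIs, under 300 genes or over 10% mitochondrial UMIs were left out, 6208 barcodes remained in the plucked day 12 library, 5411 in the in-skin library, 19457 in the day 13 library and 19435 in the day 14 library. The files held between 56504070 and 72385294 UMIs per library, and the median kept barcode held 8537, 6797, 2299 and 2150 UMIs in the same order. Epithelial barcodes numbered 3791, 1659, 2747 and 3000, and fibroblast barcodes numbered 853, 2298, 452 and 367. Globin genes took 0.585% and 1.78% of kept UMIs at day 12 but 47.2% and 44.7% in the nuclei. The W-linked gene HINTW gave 176270 UMIs in kept barcodes of plucked day 12 feathers and 1 UMI in feathers in skin, so these libraries also differed in the sex of their embryos. Between 12 and 110 kept barcodes had the same sequence in a pair of libraries.

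Each gate held more of its own markers than the other gate did. The 8 epithelial markers found summed to 4407, 5822, 3105 and 3275 CPM (a gene's UMIs scaled to the same total in every group) in the epithelial gate of plucked day 12, in skin day 12, day 13 and day 14, against 333, 408, 698 and 314 CPM in the fibroblast gate. The 8 fibroblast markers summed to 11884, 18521, 5120 and 8306 CPM in the fibroblast gate, against 116, 329, 531 and 229 CPM in the epithelial gate. The nuclear gates were thus less clean at day 13 than at day 12. GATA3, KRT5, COL1A1 and COL1A2 belong to these lists and also set the gates, so these sums only describe the gates.

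The ligand gene EDA had its higher level in the fibroblast gate of every library. At day 12 its level was 0.131 CPM in epithelial barcodes of plucked feathers (6 UMIs), against 59.8 CPM in their fibroblast barcodes (251 UMIs), and 0.138 CPM in epithelial barcodes of feathers in skin (3 UMIs), against 1.71 CPM in their fibroblast barcodes (26 UMIs). In the nuclei it was 32.2 CPM in epithelial barcodes at day 13 (426 UMIs), against 115 CPM in fibroblast barcodes (180 UMIs), and 10.1 CPM in epithelial barcodes at day 14 (136 UMIs), against 63.0 CPM in fibroblast barcodes (90 UMIs). The epithelial level was the lower one in 4 of 4 libraries and close to nil in both libraries of whole cells.

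On the log2 scale the epithelial over fibroblast ratio of EDA was -8.84 (-10.30 to -7.70) in plucked day 12 feathers, a 458-fold lower level, and -3.62 (-5.99 to -1.92) in feathers in skin. It was -1.84 (-2.09 to -1.58) at day 13 and -2.64 (-3.04 to -2.24) at day 14. The day 13 ratio was -0.82 under stricter gates, which left 14 fibroblast EDA UMIs, and the in-skin ratio was -0.21 with a pseudocount of 10 CPM. As first given, all 4 ratios passed 2-fold, while among genes with at least 10 CPM in either gate 23.2%, 19.4%, 12.7% and 19.8% were at least 2-fold lower in epithelial barcodes of the 4 libraries. Of these genes 0.561% in plucked day 12 feathers, 7.65% at day 13 and 8.54% at day 14 had a ratio at least as low as that of EDA. In feathers in skin EDA was under 10 CPM in both gates and is not among the genes so counted.

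The share of barcodes with an EDA UMI followed the same order. It was 0.158% (0.0581 to 0.344) of epithelial and 18.5% (15.97 to 21.3) of fibroblast barcodes in plucked day 12 feathers, and 0.181% of epithelial and 1.09% of fibroblast barcodes in feathers in skin. At day 13 it was 7.17% of epithelial and 14.6% of fibroblast barcodes, and at day 14 it was 3.23% and 11.2% of epithelial and fibroblast barcodes. The median depth in plucked day 12 feathers was 10942 UMIs in epithelial and 4607 UMIs in fibroblast barcodes. Each barcode was then thinned to 1000 UMIs in a random draw that was not repeated. The shares in plucked day 12 feathers were then 0% of 3764 epithelial and 4.88% of 840 fibroblast barcodes. Before that, 27 epithelial and 13 fibroblast barcodes under that depth had been left out. A separate draw on the SHH-zero part of these epithelial barcodes had an EDA UMI in 1 of 3070, so the 0% belongs to its draw.

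**Figure D1:**
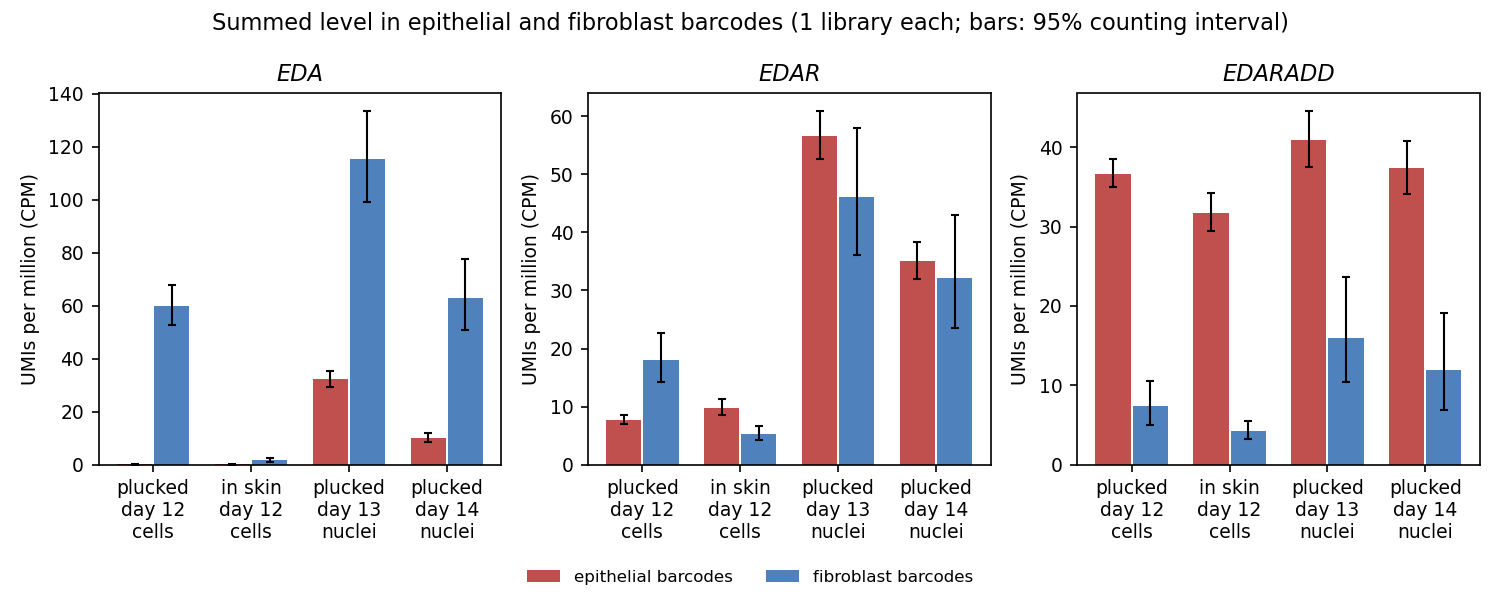
Summed level (CPM) of EDA, EDAR and EDARADD in epithelial barcodes (left bar of each pair) and fibroblast barcodes (right bar) of the 4 libraries, with 95% counting intervals as error bars. EDA is higher in the fibroblast gate of every library and EDARADD in the epithelial gate, while the EDAR pair changes order between plucked (7.78 epithelial and 18.1 fibroblast CPM) and in skin (9.83 epithelial and 5.32 fibroblast CPM) day 12 feathers.

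The receptor gene EDAR was read in both gates, and the order of the gates differed between libraries. In plucked day 12 feathers it was 7.78 CPM in epithelial barcodes (357 UMIs) and 18.1 CPM in fibroblast barcodes (76 UMIs). In feathers in skin it was 9.83 CPM in epithelial barcodes (213 UMIs) and 5.32 CPM in fibroblast barcodes (81 UMIs). In the nuclei it was 56.7 CPM in epithelial and 46.1 CPM in fibroblast barcodes at day 13, and 35.1 CPM in epithelial and 32.2 CPM in fibroblast barcodes at day 14. Within the epithelial gate the nuclear levels were thus the higher ones, but preparation and age cannot be told apart there.

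The log2 ratio of EDAR, epithelial over fibroblast, was -1.22 (-1.58 to -0.84) in plucked day 12 feathers and 0.89 (0.51 to 1.27) in feathers in skin. In the nuclei it was 0.30 (-0.05 to 0.67) at day 13 and 0.12 (-0.32 to 0.59) at day 14, and both intervals include no difference. Only the plucked day 12 ratio passed 2-fold, and there 23.2% of genes were lower by that much. Without fibroblast barcodes rich in mural cell markers, described further on, the ratio in feathers in skin was 1.72 and passed 2-fold as well. With those barcodes left in, 16.4% of genes were higher by that much, and the share without them was not computed. In feathers in skin EDAR was under 10 CPM in both gates and is not among the genes so counted.

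The adaptor gene EDARADD had its higher level in the epithelial gate of every library. It was 36.7 CPM in epithelial barcodes (1683 UMIs) and 7.39 CPM in fibroblast barcodes (31 UMIs) of plucked day 12 feathers, and 31.7 CPM in epithelial barcodes (687 UMIs) and 4.27 CPM in fibroblast barcodes (65 UMIs) of feathers in skin. At day 13 it was 40.9 CPM in epithelial and 16.0045 CPM in fibroblast barcodes, and at day 14 it was 37.3 CPM in epithelial and 11.9 CPM in fibroblast barcodes. Across the 4 libraries the epithelial level stayed between 31.7 and 40.9 CPM.

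The log2 ratio of EDARADD was 2.31 (1.80 to 2.87), 2.89 (2.52 to 3.28), 1.35 (0.78 to 2.00) and 1.65 (0.95 to 2.44) in plucked day 12, in skin day 12, day 13 and day 14 feathers. It passed 2-fold in 4 of 4 libraries, where 13.1%, 16.4%, 14.7% and 14.1% of genes were higher in epithelial barcodes by that much. At day 12 an EDARADD UMI was found in 32.5% of epithelial and 3.28% of fibroblast barcodes of plucked feathers, and in 30.9% of epithelial and 2.35% of fibroblast barcodes of feathers in skin. In the nuclei the shares were 16.2% of epithelial and 4.87% of fibroblast barcodes at day 13, and 13.0% of epithelial and 3.54% of fibroblast barcodes at day 14.

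Erythroid barcodes, over 50% of whose UMIs were globin, served as the background, since these cells are not known to use the pathway. At day 12 none of the 3 genes had a UMI in the 118 such barcodes of the plucked library and the 153 of the in-skin library, which, at a floor of 3 counts, allows a share of up to 2.54% and 1.96% and a level of up to 9.32 and 3.43 CPM. Globin UMIs count in these CPM, and they took over 50% of UMIs here but at most 0.134% in the day 12 gates. Without globin UMIs both CPM limits would be higher, and such limits were not computed. Levels under the limits given cannot be set apart from this background at its depth. Among them were 7.78 CPM of EDAR in epithelial and 7.39 CPM of EDARADD in fibroblast barcodes of plucked feathers, and 1.71 CPM of EDA in fibroblast barcodes of feathers in skin. The 0.131 CPM of EDA in epithelial barcodes of plucked feathers was another, so the size of its 458-fold ratio is uncertain. In the nuclei the erythroid levels were 2.17 and 0.39 CPM for EDA, 2.32 and 0.943 CPM for EDAR, and 3.55 and 7.41 CPM for EDARADD at day 13 and day 14. They too are lowered by globin UMIs relative to the gates. Globin took 15.7% of epithelial and 25.7% of fibroblast UMIs at day 13, and 13.4% and 14.9% at day 14. EDARADD had a UMI in 3.53% of 5757 erythroid barcodes at day 14 (median 4306 UMIs), against 3.54% of 367 fibroblast barcodes (median 3302 UMIs), so its fibroblast share there is at the background. At day 13 the shares in erythroid barcodes, 0.922% for EDA, 1.21% for EDAR and 1.96% for EDARADD at a median of 4872 UMIs, lay under those of both gates.

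Most EDA molecules of plucked day 12 feathers, 88.4%, lay in fibroblast barcodes, which held 7.64% of the kept UMIs. In feathers in skin the fibroblast gate held 76.5% of EDA molecules and 34.7% of the kept UMIs. In the nuclei the epithelial gate held more EDA molecules than the fibroblast gate, but it was also the far larger gate. At day 13 epithelial barcodes held 26.3% of EDA molecules and 19.7% of the kept UMIs, and fibroblast barcodes held 11.1% and 2.32%. At day 14 epithelial barcodes held 29.8% and fibroblast barcodes 19.7% of EDA molecules, while the gates took 15.4% and 1.89% of the kept barcodes. Barcodes without enough marker UMIs for any class held 30.1% and 39.8% at day 13 and day 14. Melanocyte-like barcodes at day 13 gave 75.4 CPM of EDA and 78.7 CPM of EDAR, but their epithelial marker list, at 2431 CPM, exceeded their melanocyte list, at 1714 CPM, and 1 barcode among them held 31 EDAR UMIs, so the value cannot be given to melanocytes. Endothelial-like barcodes gave 11.5 CPM of EDA in plucked day 12 feathers (10 UMIs), 4.44 CPM in feathers in skin (2 UMIs), 59.6 CPM at day 13 and 9.27 CPM at day 14. Their epithelial and fibroblast lists in plucked day 12 feathers, at 2607 and 2130 CPM, exceeded their endothelial list, at 1854 CPM. That EDA value thus cannot be given to endothelial cells either. The day 13 barcodes held 1854 CPM of epithelial and 1569 CPM of fibroblast markers beside 2061 CPM of endothelial ones. Their EDA thus cannot be placed with certainty. Endothelial markers led by more in the in-skin library (2361 CPM, beside 1339 epithelial and 1306 fibroblast). They also did in the day 14 library (3674 CPM, beside 882 epithelial and 724 fibroblast). Whether endothelial cells held the EDA of these barcodes was not tested.

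Barcodes just inside the gates were set beside those just outside them. In plucked day 12 feathers EDARADD was 33.0 CPM in epithelial barcodes with 3 or 4 gate UMIs and 25.7 CPM in barcodes with 1 or 2. EDAR was 9.74 and 7.42 CPM in the same barcodes. In feathers in skin EDAR had no UMI in the 173 barcodes just inside the epithelial gate and 1 UMI (0.621 CPM) in the 448 just outside it, beside 9.83 CPM in the whole gate. At day 13, where most kept barcodes fell outside the gates, EDARADD was 33.6 CPM just inside the epithelial gate and 12.2 CPM just outside it. EDA at day 13 was 149 CPM just inside the fibroblast gate and 30.8 CPM just outside it. EDARADD at the fibroblast edge was 11.6 CPM inside and 10.8 CPM outside at day 13, but 7.04 CPM inside (1 UMI) and 48.6 CPM outside (7 UMIs) in plucked day 12 feathers and 1.54 CPM inside (1 UMI) and 13.4 CPM outside (10 UMIs) in feathers in skin. EDAR at that edge of plucked day 12 feathers had 3 UMIs inside and none outside.

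Within the epithelium, barcodes rich in SHH were set against those without it. EDAR was higher in SHH-high barcodes in 4 of 4 libraries. It was 42.2 CPM in 364 SHH-high barcodes against 3.92 CPM in 3096 SHH-zero barcodes of plucked day 12 feathers, and 21.6 CPM in 295 SHH-high barcodes against 5.78 CPM in 1231 SHH-zero barcodes of feathers in skin. In the nuclei it was 110 CPM in 328 SHH-high barcodes against 34.0 CPM in 1894 SHH-zero barcodes at day 13, and 119 CPM in 123 SHH-high barcodes against 28.8 CPM in 2575 SHH-zero barcodes at day 14. The counting intervals of the pair did not overlap in any library.

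The log2 ratio of EDAR, SHH-high over SHH-zero, was 3.43 (3.105 to 3.75) in plucked day 12 feathers, a 10.8-fold difference, and 1.90 (1.47 to 2.34) in feathers in skin. The SHH-zero level in plucked day 12 feathers, 3.92 CPM, lies under the 9.32 CPM limit of the erythroid background there, so the size of that fold is uncertain. It was 1.70 (1.46 to 1.94) at day 13 and 2.04 (1.69 to 2.38) at day 14. By comparison 10.2%, 4.87%, 5.76% and 8.13% of genes with at least 10 CPM in either group were 2-fold or more higher in SHH-high barcodes of the 4 libraries. The genes with a ratio at least as high as that of EDAR made up 0.830%, 1.63%, 0.732% and 1.23% of those genes, EDAR included.

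SHH-high barcodes were about as deep as SHH-zero barcodes in plucked day 12 feathers, with medians of 10885 against 10977 UMIs, but deeper at day 13, with 6143 against 3153 UMIs, and at day 14, with 4456 against 3425 UMIs. An EDAR UMI was found in 37.1% of SHH-high and 4.17% of SHH-zero barcodes of plucked day 12 feathers, and in 24.7% and 5.69% of SHH-high and SHH-zero barcodes of feathers in skin. At day 13 the shares were 48.5% of SHH-high and 9.66% of SHH-zero barcodes, and at day 14 they were 38.2% and 6.56% of SHH-high and SHH-zero barcodes. Thinned to 1000 UMIs each, the shares became 4.40% of SHH-high and 0.651% of SHH-zero barcodes in plucked day 12 feathers, and 2.71% of SHH-high and 0.408% of SHH-zero barcodes in feathers in skin. In the nuclei they became 12.5% of SHH-high and 2.90% of SHH-zero barcodes at day 13 and 15.8% of SHH-high and 2.94% of SHH-zero barcodes at day 14. At equal depth the SHH-high share thus remained the larger one in each library. Thinning left out between 5 and 196 SHH-zero barcodes per library and at most 3 SHH-high ones.

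Globin UMIs and markers of other cell types were set beside this difference. Globin took 8.59% of UMIs in SHH-high barcodes against 18.9% in SHH-zero barcodes at day 13, and 10.4% against 13.9% in the SHH-high and SHH-zero barcodes of day 14. The 8 fibroblast markers summed to 158 CPM in SHH-high against 108 CPM in SHH-zero barcodes of plucked day 12 feathers, and to 232 CPM in SHH-high against 351 CPM in SHH-zero barcodes of feathers in skin. At day 13 they summed to 537 CPM in SHH-high and 538 CPM in SHH-zero barcodes, and at day 14 to 267 CPM in SHH-high and 222 CPM in SHH-zero barcodes. DCN alone gave 136 and 85.7 CPM of the fibroblast sums in plucked day 12 feathers, and 166 and 257 CPM in feathers in skin. The 6 nerve markers summed to 129 CPM in SHH-high against 560 CPM in SHH-zero barcodes of plucked day 12 feathers, and to 57.8 CPM in SHH-high against 268 CPM in SHH-zero barcodes of feathers in skin. TUBB3 alone gave 126 and 557 CPM of these sums in plucked feathers, and 54.2 and 264 CPM in feathers in skin. Melanocyte markers summed to more in SHH-high barcodes of all 4 libraries, with 1052 CPM in SHH-high against 706 CPM in SHH-zero barcodes at day 13, where the endothelial markers summed to 413 CPM in SHH-high and 242 CPM in SHH-zero barcodes. MITF gave most of each melanocyte sum, with 205 of 223 and 148 of 170 CPM in plucked day 12 feathers. At day 14 it gave 730 of 772 CPM in SHH-high and 511 of 591 CPM in SHH-zero barcodes. The other melanocyte markers together were lower in SHH-high barcodes of those libraries, and higher in feathers in skin and at day 13. The part of these differences in the EDAR ratio was not tested, apart from the alternatives that leave globin-rich barcodes or globin UMIs out.

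**Figure D2:**
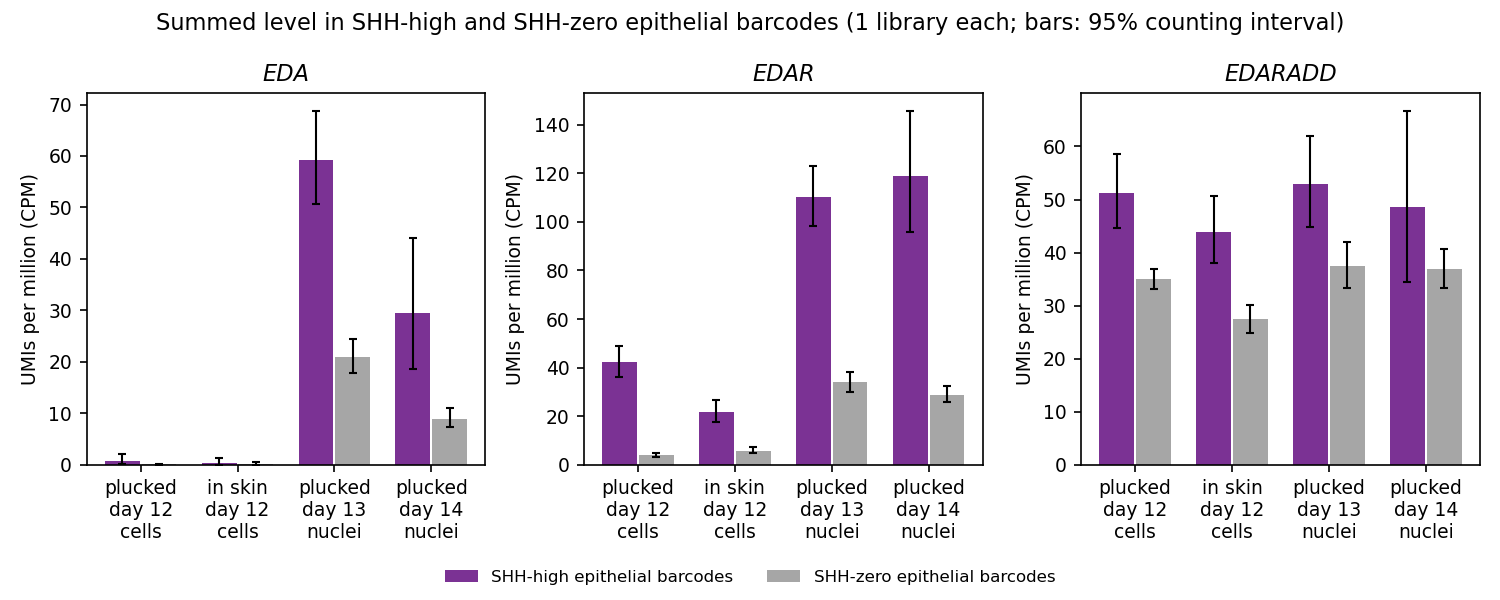
Summed level (CPM) of EDA, EDAR and EDARADD in epithelial barcodes with at least 3 SHH UMIs (left bar of each pair) and with none (right bar), with 95% counting intervals. EDAR is higher with SHH in every library (42.2 against 3.92 CPM in plucked day 12 feathers), EDARADD differs less, and EDA is near 0 in both libraries of whole cells.

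The SHH cut was then replaced by 4 steps of SHH count, a split added after the data had been seen. In plucked day 12 feathers EDAR was 3.92 CPM at 0 SHH UMIs, 8.13 CPM at 1 to 2, 38.5 CPM at 3 to 9 and 45.2 CPM at 10 or more. In feathers in skin it was 5.78, 15.5, 17.8 and 24.4 CPM at the same steps. At day 13 it was 34.0, 64.4, 112 and 104 CPM, and at day 14 it was 28.8, 36.2, 118 and 124 CPM, the last from 22 barcodes. In each library the barcodes with 3 or more SHH UMIs lay above those with none, and the steps from 3 to 9 and from 10 upward had overlapping intervals in all 4.

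**Figure D3:**
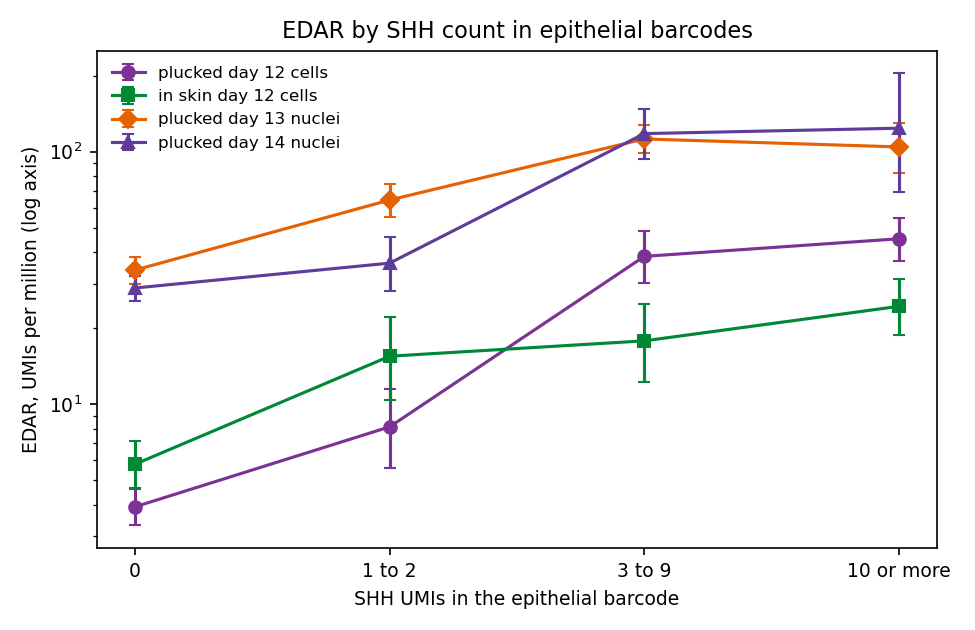
EDAR level (CPM, log axis) in epithelial barcodes grouped by their number of SHH UMIs (0, 1 to 2, 3 to 9, 10 or more), 1 line per library, with 95% counting intervals. Each line is higher at 3 to 9 SHH UMIs than at 0 (38.5 CPM at 3 to 9 in plucked day 12 feathers, 112 CPM at day 13) and stays within its intervals beyond that. In feathers in skin the intervals at 1 to 2 and at 3 to 9 SHH UMIs overlap as well (15.5 and 17.8 CPM).

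The adaptor differed less with SHH. EDARADD was 51.2 CPM in SHH-high and 35.0 CPM in SHH-zero barcodes of plucked day 12 feathers, and 43.9 CPM in SHH-high and 27.4 CPM in SHH-zero barcodes of feathers in skin. It was 52.9 CPM in SHH-high and 37.5 CPM in SHH-zero barcodes at day 13, and 48.6 CPM in SHH-high and 36.9 CPM in SHH-zero barcodes at day 14. The log2 ratios were 0.55 (0.34 to 0.76), 0.68 (0.43 to 0.93), 0.50 (0.20 to 0.78) and 0.40 (-0.12 to 0.88), none of them past 2-fold, and the last interval includes no difference. With at most 5% mitochondrial UMIs, the ratio in plucked day 12 feathers was -0.0010, from 21 SHH-high UMIs. Between 7.68% and 30.1% of genes had a ratio at least as high in the 4 libraries.

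The ligand in the epithelial gate could be compared only in the nuclei, since whole cells gave 3 and 2 EDA UMIs in SHH-high and SHH-zero barcodes of plucked feathers and 1 and 2 UMIs in those of feathers in skin. At day 13 EDA was 59.1 CPM in SHH-high and 21.0 CPM in SHH-zero barcodes, a log2 ratio of 1.497 (1.18 to 1.82). At day 14 it was 29.4 CPM in SHH-high and 8.97 CPM in SHH-zero barcodes, a ratio of 1.71 (0.99 to 2.38). Genes with ratios as high made up 1.36% and 2.15% of those counted. Along the steps of SHH at day 13 EDA was 21.0, 35.8, 71.7 and 23.8 CPM, so the barcodes with 10 or more SHH UMIs, 52 in number, fell back to the level of those with none.

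EDA-positive epithelial nuclei also differed from the other epithelial nuclei in other respects. Their fibroblast markers summed to 840 CPM against 484 CPM in epithelial nuclei without EDA at day 13, and to 484 CPM against 216 CPM in those with and without EDA at day 14. Their median depth was 6871 against 3370 UMIs at day 13 and 4658 against 3500 UMIs at day 14. Their share of globin UMIs was 7.49% against 16.9% at day 13 and 7.66% against 13.7% at day 14. The part of fibroblast RNA in the epithelial EDA signal was not tested.

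Ligand, receptor and adaptor were also read together in the same barcodes. EDAR was 107 CPM in epithelial nuclei with EDA against 49.0 CPM in those without it at day 13, and 89.0 CPM with EDA against 32.4 CPM without it at day 14. Both genes were found together in 98 epithelial nuclei at day 13 and in 24 at day 14. EDARADD was 48.6 CPM in epithelial barcodes with EDAR against 35.7 CPM in those without it in plucked day 12 feathers. In feathers in skin it was 38.2 CPM with EDAR against 30.8 CPM without it, a log2 ratio of 0.31 (-0.004 to 0.62) whose interval includes 0. In epithelial nuclei it was 51.2 CPM against 37.1 CPM with and without EDAR at day 13, and 58.9 CPM against 34.4 CPM with and without EDAR at day 14. Between barcodes with at least 2 EDAR UMIs and those with none, the in-skin ratio was -0.15 (-0.97 to 0.56). At that minimum 18.6%, 70.1%, 26.8% and 14.3% of genes had a ratio at least as high as that of EDARADD in the 4 libraries. For EDA in epithelial nuclei the log2 ratio at that minimum was 1.84 at day 13 and 1.34 at day 14, which 0.603% and 8.41% of genes reached. Such shares were not computed for EDAR in nuclei with and without EDA. In fibroblast barcodes of plucked day 12 feathers EDA was 62.1 CPM with EDAR and 59.6 CPM without it, a log2 ratio of 0.06 (-0.64 to 0.69), so that no difference was detectable there with 22 EDA UMIs in the smaller group. In fibroblast nuclei EDA was 192 CPM with EDAR against 103 CPM without it at day 13, a ratio of 0.90 (0.37 to 1.41), and 114 CPM with EDAR against 57.5 CPM without it at day 14, a ratio of 0.99 (0.11 to 1.78). The nuclei with EDAR were also the deeper ones, at medians of 3963 against 2832 UMIs at day 13 and 4049 against 3289 UMIs at day 14.

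Other subsets of the epithelial gate were compared by a marker at 3 or more UMIs against 0. The share of all genes with such ratios was not computed for these subsets, so their ratios stand without a background. TOP2A, a topoisomerase of dividing cells, went with higher EDAR in the 3 libraries that had at least 50 TOP2A-high barcodes. EDAR was 14.6 CPM in TOP2A-high against 5.80 CPM in TOP2A-zero barcodes of plucked day 12 feathers, 12.8 CPM against 6.43 CPM in the TOP2A-high and TOP2A-zero barcodes of feathers in skin, and 96.6 CPM against 44.3 CPM in those of day 13. The log2 ratios were 1.33, 0.99 and 1.13, while those of EDARADD were 0.08, 0.11 and 0.17 with intervals that include 0. TOP2A-high barcodes were also the deeper ones, at medians of 12754 against 10318 UMIs, 16101 against 11125 UMIs and 8095 against 3233 UMIs in the same order.

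Subsets marked by F-KER, MSLN or KRT18 had less EDAR in part of the libraries, and those of MSLN and KRT18 were read in plucked day 12 feathers only. The subset marked by EDQM3 and SPINK5 together had more EDAR at day 12 and less in the nuclei. F-KER, a feather keratin gene, marked 171 barcodes of plucked day 12 feathers in which EDAR was 3.77 CPM, against 8.69 CPM in barcodes without it. At day 13 EDAR was 61.9 CPM in F-KER-high and 56.6 CPM in F-KER-zero barcodes, a log2 ratio of 0.13 (-0.14 to 0.40), and at day 14 it was 26.0 CPM in F-KER-high and 51.0 CPM in F-KER-zero barcodes, a ratio of -0.97 (-1.32 to -0.61). MSLN, which encodes mesothelin, marked 113 barcodes of plucked day 12 feathers with no EDAR UMI at a median depth of 18426 UMIs, against 8.36 CPM in barcodes without MSLN. With the 0 set to a floor of 3 counts over the group, the log2 ratio is a bound of -2.58. EDARADD was 13.0 CPM in the MSLN-high barcodes against 38.5 CPM in the others. In 63 KRT18-high barcodes of the same library EDAR was 2.07 CPM (2 UMIs) against 8.55 CPM in KRT18-zero barcodes. Both EDAR levels of the F-KER, MSLN and KRT18 pairs of plucked day 12 feathers lie under the 9.32 CPM limit of the erythroid background. Neither side of these pairs can thus be set apart from that background. With EDQM3 and SPINK5, EDAR was 13.6 CPM against 6.08 CPM without them in plucked day 12 feathers. In feathers in skin it was 14.9 CPM with them against 8.96 CPM without them. At day 13 it was 44.2 CPM with them against 59.4 CPM without them, and at day 14 it was 17.4 CPM against 55.0 CPM.

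The fibroblast gate was divided as well, by UMIs of 10 mural cell genes such as ACTA2 and TAGLN, a split added after the data had been seen. In plucked day 12 feathers EDA was 61.3 CPM in the 440 fibroblast barcodes with no mural UMI, 81.3 CPM in the 320 with 1 to 9 and 8.47 CPM in the 93 with 10 or more (6 UMIs). Among in-skin barcodes it was 2.01, 2.31 and 0.288 CPM in 1067, 730 and 501 barcodes. The ligand was thus read lower in the mural-rich part of the gate in both day 12 libraries. All the in-skin levels lie under the 3.43 CPM limit of the erythroid background, so their order is uncertain. The mural-rich level of plucked feathers lies under the 9.32 CPM limit there, so the size of its fold is uncertain. The share of all genes with such ratios was not computed for this split. The log2 ratio of 10 or more over 0 mural UMIs was -2.85 (-4.33 to -1.69) in plucked and -2.80 (-8.20 to -0.09) in in-skin feathers, where the mural-rich value rests on 1 UMI. Mural-like barcodes outside both gates had no EDA UMI in feathers in skin (50 barcodes) but 81.7 CPM at day 13 (128 barcodes, 35 UMIs). At day 13 their mural, fibroblast and epithelial lists summed to 3010, 2116 and 1605 CPM.

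EDAR in fibroblast subsets of the same mural counts ran in opposite directions. In the whole fibroblast gate the mural list was led by ACTA2 in plucked day 12 feathers (379 of 898 CPM). In feathers in skin it was led by ACTG2 (1580 of 3390 CPM). Whether the mural-rich barcodes are the same kind of cell in both libraries was not tested. EDAR in plucked day 12 feathers was 20.3 CPM at 0 mural UMIs, 22.4 CPM at 1 to 9 and 2.82 CPM at 10 or more (2 UMIs). In feathers in skin it was 2.58, 3.57 and 13.2 CPM, the last from 46 of the 81 EDAR molecules of the gate. The 70 fibroblast barcodes of feathers in skin with EDAR held 9456 CPM of mural markers against 3189 CPM in those without it, and 8751 CPM of fibroblast markers with EDAR against 18846 CPM without it. In plucked feathers the 71 fibroblast barcodes with EDAR held 379 CPM of mural markers against 946 CPM in those without it. The EDAR of the fibroblast gate therefore came from barcodes of unlike marker content in the day 12 libraries.

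**Figure D4:**
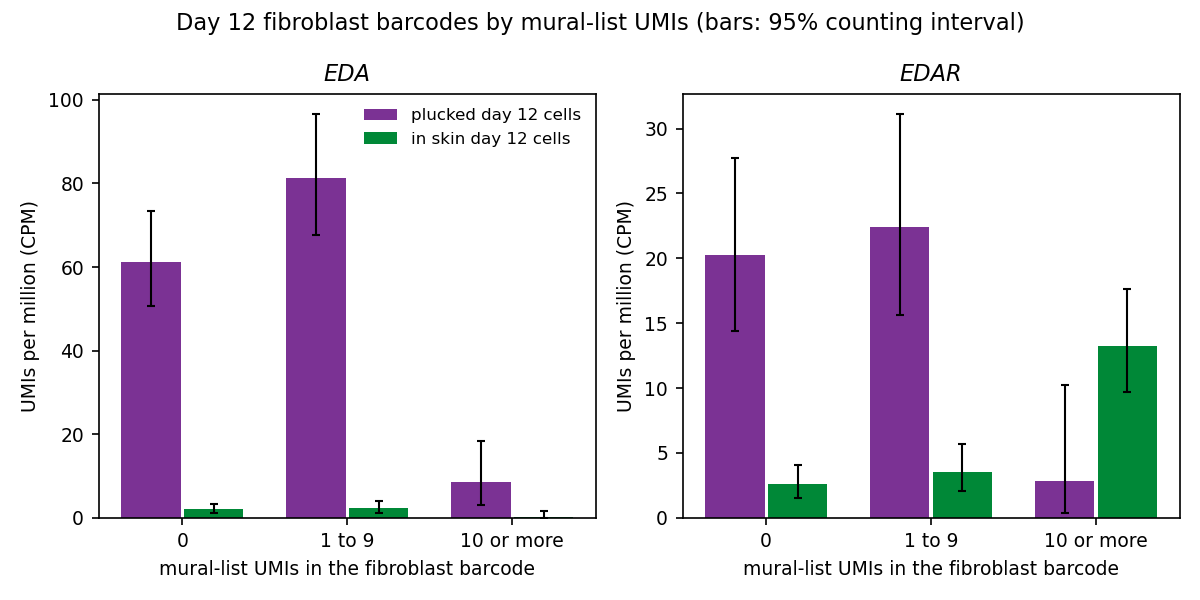
EDA and EDAR levels (CPM) in day 12 fibroblast barcodes grouped by UMIs of the mural marker list (0, 1 to 9, 10 or more), plucked feathers (left bar) and feathers in skin (right bar), with 95% counting intervals. EDA is lowest at 10 or more mural UMIs in both libraries, whereas EDAR is lowest there in plucked feathers (2.82 CPM) and highest there in feathers in skin (13.2 CPM). All EDA levels of feathers in skin lie under the 3.43 CPM limit of the erythroid background.

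Plucked feathers and feathers in skin shared an age and a way of preparing cells, so they could be set against each other. In the fibroblast gate EDA was 59.8 CPM in plucked and 1.71 CPM in in-skin barcodes, a 35.0-fold difference and a log2 ratio of 5.13 (4.54 to 5.77). The in-skin level lies under the 3.43 CPM limit of the erythroid background there, so the size of that fold is uncertain. Of the 8311 genes with at least 10 CPM in either library 29.9% were at least 2-fold higher in plucked fibroblast barcodes and 3.86% at least 2-fold lower, so the background itself was shifted, with a median of 0.52. A ratio as high as that of EDA was found for 0.313% of these genes.

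EDAR in the fibroblast gate was 18.1 CPM in plucked and 5.32 CPM in in-skin barcodes, a log2 ratio of 1.77 (1.30 to 2.24) that 11.3% of genes reached. With mural-rich barcodes left out the ratio was 2.83. EDARADD was 7.39 CPM in plucked and 4.27 CPM in in-skin fibroblast barcodes, a ratio of 0.79 (0.12 to 1.43) beside a median over all genes of 0.52. Mural markers summed to 898 CPM in the plucked gate against 3390 CPM in the in-skin gate, and the median depth was 4607 against 6315 UMIs. Tissue, sex of the embryos and library cannot be told apart in this comparison.

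In the epithelial gate the 3 genes differed less between these libraries. EDAR was 7.78 CPM in plucked and 9.83 CPM in in-skin barcodes, a log2 ratio of -0.34 (-0.59 to -0.09) that turned to 0.12 when barcodes were averaged in place of summed, and EDARADD was 36.7 CPM in plucked and 31.7 CPM in in-skin barcodes, a ratio of 0.21 (0.08 to 0.34). EDA had 6 UMIs in the plucked and 3 UMIs in the in-skin epithelial gate, too few for a ratio to be read. None of these passed 2-fold, while 22.3% of genes were higher and 4.03% lower by that much, with a median of 0.30. TMM factors, which lower all ratios of this comparison by 0.36 in epithelial and 0.63 in fibroblast barcodes, turned the sign for EDARADD to -0.15, so its direction is not set by these data.

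EDA and, in epithelial nuclei, EDAR were lower at day 14 than at day 13. EDA in epithelial nuclei was 10.1 CPM at day 14 and 32.2 CPM at day 13, a log2 ratio of -1.68 (-1.97 to -1.39), where 5.28% of genes were at least 2-fold lower and 3.59% higher. Only 1.16% of genes had a ratio as low. The 8 fibroblast markers in the same epithelial gate summed to 229 CPM at day 14 and 531 CPM at day 13, EDA in erythroid barcodes was 0.39 CPM at day 14 and 2.17 CPM at day 13, and the part of either in the EDA ratio was not tested. In fibroblast nuclei EDA was 63.0 CPM at day 14 and 115 CPM at day 13, a ratio of -0.87 (-1.25 to -0.50), where 4.38% of genes were at least 2-fold lower and 6.54% higher.

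EDAR in epithelial nuclei was 35.1 CPM at day 14 and 56.7 CPM at day 13, a log2 ratio of -0.69 (-0.86 to -0.52). Of the genes counted there 12.9% had a ratio at least as low. In fibroblast nuclei EDAR was 32.2 CPM at day 14 and 46.1 CPM at day 13, with an interval (-1.08 to 0.04) that includes 0. Under stricter gates that ratio was 0.96, from 6 UMIs at day 13. EDARADD was 37.3 CPM at day 14 and 40.9 CPM at day 13 in epithelial nuclei, a ratio of -0.13 (-0.31 to 0.04), or 0.08 with TMM factors. SHH itself was 81.9 CPM at day 14 and 207 CPM at day 13 in epithelial nuclei, and SHH-high nuclei numbered 123 of 3000 and 328 of 2747 there. Within SHH-high nuclei EDAR was 119 CPM at day 14 and 110 CPM at day 13, with overlapping intervals. Nuclei with 1 to 2 SHH UMIs held less EDAR on the later day, and their intervals did not overlap. Their day 13 level was 64.4 CPM (55.1 to 74.8), whereas their day 14 level was 36.2 CPM (28.1 to 45.9). SHH-zero nuclei gave 34.0 CPM of EDAR on the earlier day and 28.8 CPM on the later one, with overlapping intervals. The part of the fewer SHH-high nuclei in the EDAR ratio was not tested.

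A list of 56 genes of the pathway and of appendage signalling, of which 47 were in the files, was read beside the members. Between SHH-high and SHH-zero barcodes 15 of 34 list genes with at least 10 CPM were 2-fold or more higher and 3 lower in plucked day 12 feathers, and 8 of 27 were higher and 2 lower in feathers in skin. Of 33 list genes at day 13, 9 were higher and none lower, and of 34 at day 14, 12 were higher and 1 lower. SHH, which is higher by the split itself, and EDAR are among those counted. Over all genes 7.46%, 5.49%, 1.74% and 4.16% were at least 2-fold lower in the 4 libraries, beside the shares of higher genes given above. The list's median log2 ratios were 0.71, 0.24, 0.51 and 0.37, beside medians over all genes of 0.05, 0.03, 0.23 and 0.13.

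Among the NF-kappaB genes NFKBIA, which encodes the inhibitor IkappaB-alpha and is itself an NF-kappaB target, was 796 CPM in SHH-high against 112 CPM in SHH-zero barcodes of plucked day 12 feathers, and 992 CPM in SHH-high against 222 CPM in SHH-zero barcodes of feathers in skin. NFKB1, a subunit of NF-kappaB, was 176 CPM in SHH-high against 33.9 CPM in SHH-zero barcodes of plucked feathers and 123 CPM in SHH-high against 39.2 CPM in SHH-zero barcodes of feathers in skin. NFKBIZ, a nuclear IkappaB protein, went the other way, with 78.4 CPM in SHH-high against 494 CPM in SHH-zero barcodes of plucked feathers and 27.5 CPM in SHH-high against 168 CPM in SHH-zero barcodes of feathers in skin. In the nuclei TNFAIP3, the feedback inhibitor A20, was 41.7 CPM in SHH-high against 12.4 CPM in SHH-zero barcodes at day 13 and 62.6 CPM in SHH-high against 13.8 CPM in SHH-zero barcodes at day 14. Among the adaptors TRAF3 was higher with SHH in all 4 libraries, with log2 ratios of 2.16, 1.32, 1.20 and 1.98 in plucked day 12, in skin day 12, day 13 and day 14 feathers.

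Among the appendage genes BMP2, a bone morphogenetic protein, was 251 CPM in SHH-high against 39.9 CPM in SHH-zero barcodes of plucked day 12 feathers and 152 CPM in SHH-high against 23.8 CPM in SHH-zero barcodes of feathers in skin. LEF1, a transcription factor of the Wnt pathway, was higher in SHH-high barcodes of all 4 libraries, with log2 ratios of 3.19 and 2.15 in plucked and in skin day 12 feathers and 1.70 and 2.45 at day 13 and day 14. LAMA5, a laminin chain, had ratios of 2.89, 1.71, 1.19 and 1.41 in the same order. TCF7, another Wnt factor, was lower at day 12, with 299 CPM in SHH-high against 653 CPM in SHH-zero barcodes of plucked feathers and 173 CPM in SHH-high against 387 CPM in SHH-zero barcodes of feathers in skin. FST, the BMP and activin antagonist follistatin, was 40.7 CPM in SHH-high against 0.768 CPM in SHH-zero barcodes of plucked day 12 feathers, but 20.9 CPM in SHH-high against 15.5 CPM in SHH-zero barcodes of feathers in skin, with log2 ratios of 1.16 at day 13 and 1.01 at day 14.

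**Figure D5:**
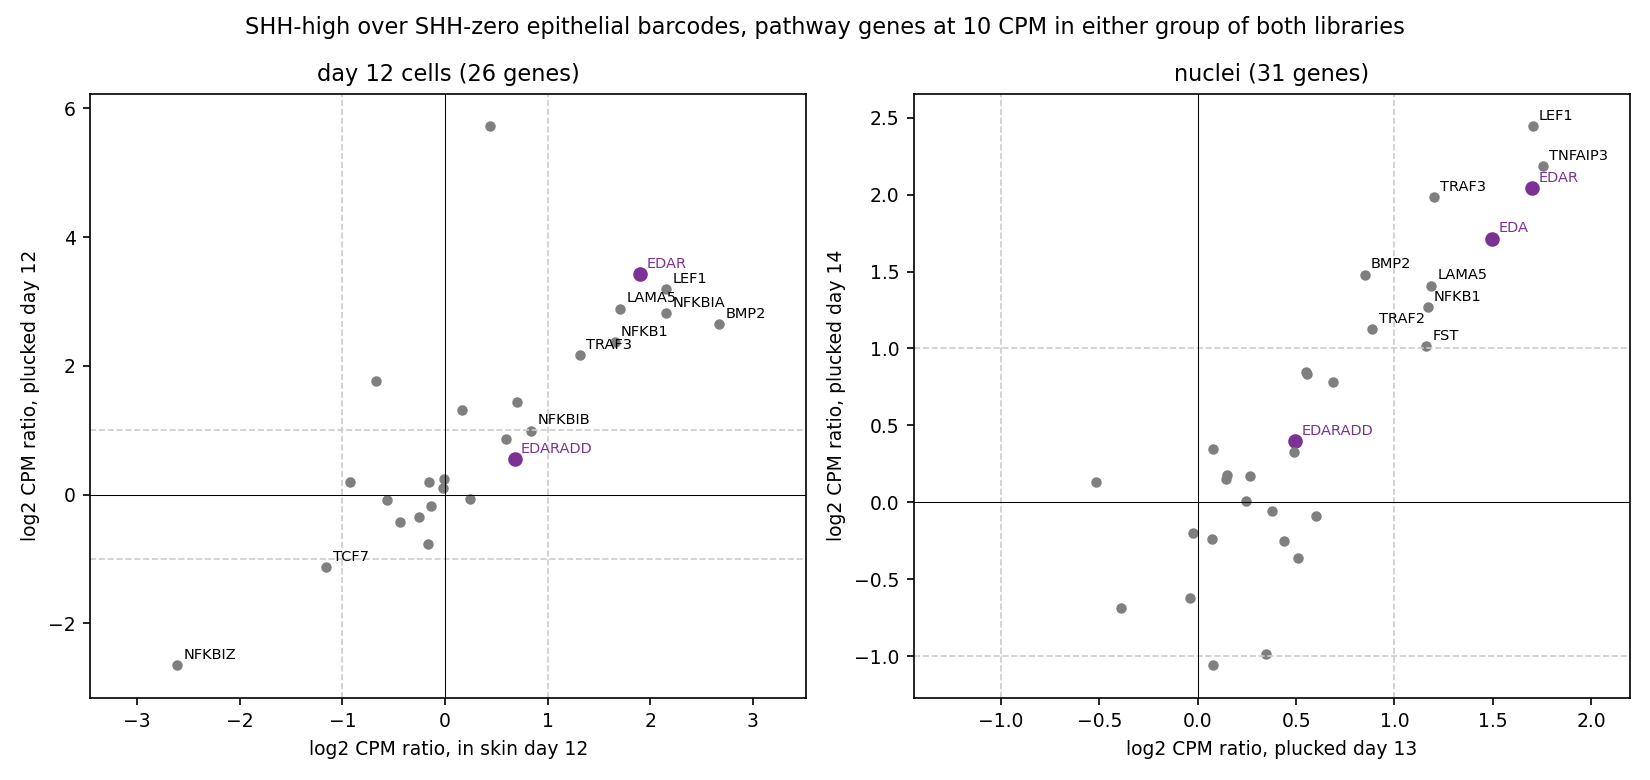
Log2 CPM ratio of SHH-high over SHH-zero epithelial barcodes for pathway genes other than SHH with at least 10 CPM in either group of both libraries, day 12 cells on the left (in skin on the horizontal axis, plucked on the vertical) and nuclei on the right (day 13 horizontal, day 14 vertical), with dashed lines at 2-fold. EDAR (1.90 and 3.43 at day 12, 1.70 and 2.04 in the nuclei) lies among LEF1, LAMA5, TRAF3 and NFKB1, and EDARADD lies inside the 2-fold lines in both panels.

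Between the gates list genes differed in both directions. In plucked day 12 feathers 8 of 34 list genes were at least 2-fold higher in epithelial barcodes and 9 lower, beside 13.1% and 23.2% of all genes, so the count of lower genes was near the background. In feathers in skin 13 of 27 were higher and 4 lower, beside 16.4% and 19.4% of all genes. In the nuclei 11 of 34 were higher and 7 lower at day 13, beside 14.7% and 12.7% of all genes, and 12 of 34 were higher and 5 lower at day 14, beside 14.1% and 19.8%. BMP4 was the list gene with the largest common ratio at day 12, with 2.61 CPM in epithelial against 272 CPM in fibroblast barcodes of plucked feathers and 2.40 CPM in epithelial against 183 CPM in fibroblast barcodes of feathers in skin. SOSTDC1, a BMP and Wnt antagonist, and FST were lower in epithelial barcodes at day 12 as well, with log2 ratios in plucked feathers of -4.60 and -3.78. TP63, the transcription factor of stratified epithelium, TCF7 and NFKBIZ were higher in epithelial barcodes of all 4 libraries. TNFRSF19, another receptor of the family, was 44.0 CPM in epithelial against 82.9 CPM in fibroblast barcodes of plucked feathers, a log2 ratio of -0.92, and 19.7 CPM in epithelial against 15.7 CPM in fibroblast barcodes of feathers in skin.

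Between plucked and in-skin fibroblast barcodes 21 of 30 list genes were at least 2-fold higher and none lower, where the background was 29.9% higher and TMM factors would lower each ratio by 0.63. They included LEF1, at 334 CPM in plucked against 60.5 CPM in in-skin barcodes, TCF7, at 192 CPM in plucked against 22.8 CPM in in-skin barcodes, and BMP2, at 35.99 CPM in plucked against 6.05 CPM in in-skin barcodes. In the epithelial gate 9 of 30 were higher and 5 lower, beside 22.3% and 4.03% of all genes, so the count of higher genes was near the background, and NFKBIA was among the lower ones with 185 CPM in plucked against 436 CPM in in-skin barcodes. Between day 14 and day 13 none of 33 list genes was 2-fold higher in epithelial nuclei and 4 were lower, namely EDA, SHH, NFKBIZ and LRP4, beside 3.59% and 5.28% of all genes. In fibroblast nuclei 1 of 34 was higher and 4 lower, beside 6.54% and 4.38% of all genes.

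The same list was read between epithelial barcodes with at least 2 EDAR UMIs and those with none, EDAR itself being higher by the split. There 16 of 36 list genes were at least 2-fold higher and 2 lower in plucked day 12 feathers (12.1% and 9.99% of all genes), and 9 of 28 were higher and 1 lower in feathers in skin (6.51% and 6.43%). In the nuclei 8 of 34 were higher and none lower at day 13 (8.34% and 2.45%), and 15 of 37 were higher and 1 lower at day 14 (14.3% and 6.35%). SHH was 828 CPM in EDAR-high against 79.6 CPM in EDAR-zero barcodes of plucked day 12 feathers, and NFKBIZ was 99.4 CPM in EDAR-high against 460 CPM in EDAR-zero barcodes.

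The genes most like EDAR were ranked by the smaller of the log2 ratios, in a pair of libraries, between epithelial barcodes with at least 2 EDAR UMIs and those with none, among genes with at least 20 CPM in the EDAR-high group of both. At day 12, with 48 EDAR-high barcodes in the plucked and 38 in the in-skin library and 4496 genes ranked, they were SMOC1, PTGS2, ICOSLG, VEGFD, ANO1, SLC34A2, AFAP1L1, EPS8, CADM1 and PDGFB. PTGS2, the inducible cyclooxygenase, was 420 CPM in EDAR-high against 48.2 CPM in EDAR-zero barcodes of plucked feathers and 420 CPM in EDAR-high against 80.3 CPM in EDAR-zero barcodes of feathers in skin. VEGFD, a vascular endothelial growth factor, was 43.6 CPM in EDAR-high against 5.27 CPM in EDAR-zero barcodes of plucked feathers and 60.8 CPM in EDAR-high against 14.2 CPM in EDAR-zero barcodes of feathers in skin. SMOC1, a matricellular protein gene, led the list with 80.2 CPM in EDAR-high against 6.61 CPM in EDAR-zero barcodes of plucked feathers. Median depth in plucked feathers was 11225 UMIs in EDAR-high and 10970 UMIs in EDAR-zero barcodes, and fibroblast markers summed to 329 CPM in EDAR-high against 101 CPM in EDAR-zero barcodes, whose part in the ranking was not tested. Of the 8 fibroblast markers 2 reached 10 CPM in each group, and 4 had no UMI in EDAR-high barcodes. DCN led the fibroblast sum of the whole epithelial gate there, with 92.7 of 116 CPM.

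In the nuclei, with 170 EDAR-high barcodes at day 13 and 107 at day 14 and 5833 genes ranked, the list was CSMD2, USP28, FGF9, RERG, ADAMTS5, LAMA3, ENSGALG00000029056, TP73, SEMA5B and MYB. FGF9, a fibroblast growth factor, was 91.1 CPM in EDAR-high against 17.7 CPM in EDAR-zero nuclei at day 13 and 63.2 CPM in EDAR-high against 4.03 CPM in EDAR-zero nuclei at day 14. LAMA3, another laminin chain, was 198 CPM in EDAR-high against 49.5 CPM in EDAR-zero nuclei at day 13 and 329 CPM in EDAR-high against 42.4 CPM in EDAR-zero nuclei at day 14. EDAR-high nuclei were deeper, at a median of 7127 against 3240 UMIs at day 13. No gene stood in both lists of 10.

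For the other members the lists were shorter. The genes most like EDA in epithelial nuclei included ETNPPL, SLC22A16, GCH1 and NRG2, and NRG2, a neuregulin, was 230 CPM in EDA-positive against 28.1 CPM in EDA-zero nuclei at day 13. Those most like EDARADD had small ratios at day 12, between 0.48 and 0.57, and were NTS, ENSGALG00000038424, LFNG, AFAP1 and HPGDS, and in the nuclei SNTG1, BUB1, OCA2, EYA1 and PDE5A. GCH1, which encodes GTP cyclohydrolase, was also among the 10 genes most like EDA in the fibroblast gate, both at day 12, where it was 212 CPM in EDA-positive against 57.4 CPM in EDA-zero barcodes of plucked feathers, and in the nuclei, where it was 245 CPM in EDA-positive against 41.7 CPM in EDA-zero barcodes at day 13. The fibroblast ranking was added after the data had been seen. At day 12 it rests on 158 EDA-positive barcodes of the plucked library and 25 of the in-skin library.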

How the data were processed

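The authors deposited UMI counts per gene and barcode for 4 libraries, unnormalized. Per the file headers the day 12 matrices were written by Cell Ranger 3.1.0 and the nuclear ones by Cell Ranger 7.0.0, while the submitters' processing notes name Cell Ranger 7.0.0 and the genome build GRCg6a for all. Whether intronic reads were counted is not given in the sources used here, and it bears on any level set across cells and nuclei. No deposited barcode had under 500 UMIs.

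From these counts, barcodes were filtered (at least 500 UMIs and 300 genes, at most 10% UMIs of the 13 mitochondrial genes), gated and summed. Levels are CPM, over the UMIs of all genes in the group, with exact Poisson intervals, shares have exact Clopper-Pearson intervals, and ratios have the exact conditional interval. PCR copies are merged by UMI, and the intervals cover counting error only. A count of 0 was set to a floor of 3 counts for a fold. A gene was counted as called at a 2-fold ratio, among genes with at least 10 CPM in either group. Barcodes outside both gates were given a class by the marker list with most UMIs (at least 3, from at least 2 markers), or as erythroid where globin passed 50%, and classes and marker subsets under 50 barcodes are not described. Barcodes over the limit on the other gate's genes fell outside the gates, and doublets were not otherwise removed. Scrublet in scanpy 1.11.5 marked 2.19%, 0.961%, 22.3% and 36.7% of kept barcodes in plucked day 12, in skin day 12, day 13 and day 14 and was used only as an alternative, since shares that large in the nuclei are doubtful.

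Named list genes are those past 2-fold in the same direction in both libraries of a pair, at most 10 per comparison, and list genes named outside that rule (FST, TNFRSF19, NFKBIA between plucked and in skin, and the genes of single comparisons) were chosen after their values were seen. The 3 genes and all lists were chosen with earlier results of these data known. Counts were also simulated with Poisson error alone for the plucked day 12 gates (7469 genes, 200 of them changed by more than 2-fold). There 99.5% of the changed genes passed 2-fold and 95.6% of intervals held the true ratio. These draws hold no spread between barcodes or embryos, so they only check the computation and not how well the intervals cover the real counts. Computations used Python 3.11.15, numpy 2.4.6, scipy 1.17.1 and, for TMM factors, edgeR 4.0.16. List symbols that matched no gene, among them MKI67, DKK4, WNT10B, IKBKG and RELB, are not analysed here, and 1 gene of the ranking by EDA is not reported here.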

Additional observations from a re-analysis of the deposited data

Results flagged for a closer look

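EDAR changed the order of its gates at day 12. The log2 ratio of epithelial over fibroblast barcodes was -1.22 (-1.58 to -0.84) in plucked feathers and 0.89 (0.51 to 1.27) in feathers in skin, and the difference between the ratios was not tested, since each library is 1 sample.

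EDAR within the fibroblast gate also had opposite signs. The log2 ratio of barcodes with 10 or more mural-list UMIs over those with 0 was -2.84 (-5.94 to -0.89) in plucked day 12 feathers, from 2 and 39 UMIs, and 2.36 (1.54 to 3.23) in feathers in skin, from 46 and 18 UMIs. This difference was not tested. The mural list was led by ACTA2 in the plucked and by ACTG2 in the in-skin fibroblast gate.

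EDQM3 and SPINK5, a pair of genes read together as a subset marker of the epithelial gate, went with more EDAR in cells and with less in nuclei. The log2 ratio of EDAR in barcodes with 3 or more of their UMIs over those with 0 was 1.16 (0.80 to 1.51) in plucked day 12 feathers, 0.73 (0.21 to 1.23) in feathers in skin, -0.42 (-0.73 to -0.13) at day 13 and -1.66 (-2.03 to -1.30) at day 14. The ratio of EDARADD in the same subsets was -0.12 (-0.30 to 0.06) in plucked day 12 feathers, 0.52 (0.23 to 0.81) in feathers in skin, -0.32 (-0.68 to 0.02) at day 13 and -0.71 (-1.02 to -0.39) at day 14. These differences between libraries were not tested, and age and preparation cannot be told apart in them.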

How the results depend on the processing

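No paired analysis was possible because each group is 1 library, and there is no replicate to leave out. Of 431 recomputed ratios of the 3 genes 373 stayed within the counting interval of the reported ratio, 54 lay outside it, and 4 changed sign where that interval excluded 0. Among the first 2 counts are 5 changes of sign where the interval included 0, namely EDARADD at day 14 over day 13 in epithelium with either scaling and with barcode means, and EDAR with stricter gates by gate at day 14 (-0.33) and at day 14 over day 13 in fibroblasts (0.96). Leaving out Scrublet-marked barcodes, globin-rich barcodes, barcodes under 1000 UMIs or globin and mitochondrial UMIs from the denominator, a 20% mitochondrial limit and an SHH minimum of 5 took no ratio outside it.

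With at most 5% mitochondrial UMIs the log2 ratio of EDA, epithelial over fibroblast in feathers in skin, was -1.46 (no epithelial UMI left), EDAR by SHH was 3.83 in plucked day 12 feathers and 3.08 in feathers in skin, EDAR in plucked over in-skin epithelium was -1.03, and EDARADD by SHH in plucked day 12 feathers was -0.0010. With the mean of each barcode's own CPM EDA by gate at day 13 was -2.16, EDAR by SHH at day 13 was 2.10, EDAR in plucked over in-skin epithelium was 0.12, and EDA at day 14 over day 13 in epithelium was -1.11. With stricter gates EDARADD by gate in feathers in skin was 3.53, EDA by gate was -0.82 at day 13 and -2.15 at day 14, and EDA at day 14 over day 13 in fibroblasts was -0.31.

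With TMM factors EDAR by SHH at day 13 was 1.44, and plucked over in skin gave -0.70 for EDAR and -0.15 for EDARADD in epithelium and 4.50 for EDA and 1.13 for EDAR in fibroblasts. With median-of-ratios factors the same values were 1.44, -0.73, -0.19, 4.49 and 1.13. With a pseudocount of 10 CPM EDA by gate was -2.78, -0.21, -1.57 and -1.86 in the 4 libraries, EDARADD by gate was 1.42 and 1.55 at day 12, EDAR by SHH was 1.91, 1.00 and 1.45 in the first 3 libraries, plucked over in skin in fibroblasts was 2.58 for EDA and 0.88 for EDAR, and EDA at day 14 over day 13 in epithelium was -1.07. With an SHH minimum of 1 EDAR by SHH was 2.71 in plucked day 12 feathers, 1.38 at day 13 and 1.07 at day 14.

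In alternatives added after the data had been seen, EDA by gate at day 13 was -2.13 without the deepest barcodes of each gate, and EDAR in plucked over in-skin fibroblasts was 2.83 without mural-rich barcodes. Ratios of the 3 genes at least 2-fold lower by gate, counted at any level, numbered 3 with the pseudocount against 5, and those at least 2-fold higher in plucked over in skin numbered 1 against 2. At least 2-fold lower there was 1 with 5% mitochondrial UMIs against none, and at day 14 over day 13 there were 2 against 1 without globin-rich barcodes or without globin and mitochondrial UMIs. Thinned to 500 UMIs at day 13 the log2 ratio of shares by SHH was 1.31 for EDAR, against 2.11 at 1000 UMIs, and 1.04 for EDARADD, against -0.10. With EDAR minimums of 1 and 3 the lists of genes most like EDAR shared 4 and 2 genes of 10 with the list given at day 12, and 4 and 5 in the nuclei. Apart from where an alternative removes UMIs or adds a pseudocount, the cause of these moves was not tested. With no minimum level 3.12% to 39.8% of genes passed 2-fold in a comparison. Low counts limit EDA in day 12 epithelium, where 6 and 3 UMIs were found.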
